A study of Arabidopsis thaliana with 4 samples.

Results

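The genes described here are 10 genes that make indole glucosinolates and camalexin, the tryptophan-derived defence compounds of Arabidopsis thaliana, or that activate this pathway. They were taken by gene identifier, by a rule that uses no measured value but that was set with earlier results of these data known, and all 10 were listed in all 4 libraries, among 24252 genes listed in at least 1 library. Libraries were made with an mRNA-seq kit from whole untreated seedlings of the Col-0 ecotype, aged 7 days, kept on upright diluted MS plates with 16 h of light and 8 h of dark. The wild type (WT) group held 2 libraries. The other group held 2 libraries labelled fer-4, with the genotype given as FERONIA-/-, a mutant of the gene for FERONIA, a receptor kinase of the plasma membrane and a receptor for RALF peptides. The labels give neither the nature nor the position of the lesion. Replicates are numbered within a genotype, with no word on separate cultures. The p-values therefore measure the spread between libraries, which may be technical.

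Both compound classes start from tryptophan. The cytochromes P450 CYP79B2 and CYP79B3 convert tryptophan to indole-3-acetaldoxime, from which the routes part: CYP83B1 and SUR1 lead to indole glucosinolates, which CYP81F2 then hydroxylates on the indole ring, while CYP71A12, CYP71A13 and CYP71B15 (PAD3) lead to camalexin, the main phytoalexin of Arabidopsis. MYB34 and MYB51 are transcription factors that activate the indole glucosinolate genes. Indole glucosinolates are made constitutively in seedlings and are broken down when tissue is damaged or attacked, whereas camalexin genes are known for low levels in healthy tissue and strong induction by pathogens.

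Levels are FPKM, mapped fragments scaled by gene length and by library size, as the authors deposited them, so levels may be compared between genes per length. An estimate put the libraries at 20.0 to 21.7 M fragments. It used only values inside a window set beforehand around 1 fragment. That window bounds the outcome, so the estimate is no independent measure of depth. FER itself stood at 89.0 and 91.9 in the WT pair and at 60.6 and 62.1 FPKM in the fer-4 pair (log2 fold change -0.55 ± 0.08; limma, adjusted p = 0.00638), so transcript from the locus was present in both genotypes; the call ended without WT replicate 2 (adjusted p = 0.0593). The seed storage genes CRA1 and SESA3 were listed in no library and the floral genes AG and AP3 did not exceed 0.205 FPKM in any. All 5 shoot markers and all 10 root markers were listed in every library. The summed level of the shoot markers was 22209 and 25106 FPKM in WT, against 21428 and 16484 FPKM in fer-4 replicates 1 and 2. Of these 5 markers 0 passed the test (limma; 0 also had an unadjusted p under 0.05). However, all 5 had a negative log2 fold change (median -0.32). In 3 of them both fer-4 libraries were below both WT libraries, against 31.7% of tested genes. The summed level of the root markers was 154 and 136 FPKM in WT, against 161 and 158 FPKM in fer-4. Of these 10 markers 2 rose (EXPA7, which overlaps AT1G12570, and PHT1;1) and 0 fell, with 3 at an unadjusted p under 0.05. Besides EXPA7 and PHT1;1 these 3 held SHR, which was lower in fer-4 (log2 fold change -0.26; limma, unadjusted p = 0.0309). Over all tested genes, 14.3% were called higher and 9.00% lower.

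Of the 10 genes, 6 rose in fer-4 and 0 fell, against 14.3% of the 19183 tested genes called higher and 9.00% called lower (limma on log2(FPKM + 1), adjusted p under 0.05). The 6 were MYB34, CYP79B3, CYP83B1, CYP81F2, CYP71A12 and CYP71B15, with ratios of mean FPKM from 1.35 in CYP81F2 to 11.9 in CYP71A12. CYP79B2, SUR1 and CYP71A13 were higher in both fer-4 libraries than in either WT library but did not pass, and MYB51 overlapped between the genotypes. In all, 9 of 10 did not overlap and were higher, against 34.4% of tested genes. All 10 met the minimum mean of 1 FPKM, but CYP71A13, with a WT mean of 0.428 FPKM, met it only through the fer-4 libraries. Without WT replicate 1 and without WT replicate 2, 0 of the 10 passed (limma; 7 and 6 had an unadjusted p under 0.05), and the 6 genes had adjusted p-values of 0.0515 to 0.179, with log2 fold changes of unchanged sign. Without fer-4 replicate 1 and without fer-4 replicate 2, 7 and 4 passed. These are whole-seedling samples, in which more cells of a type and more RNA per cell cannot be told apart.

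**Figure D1:**
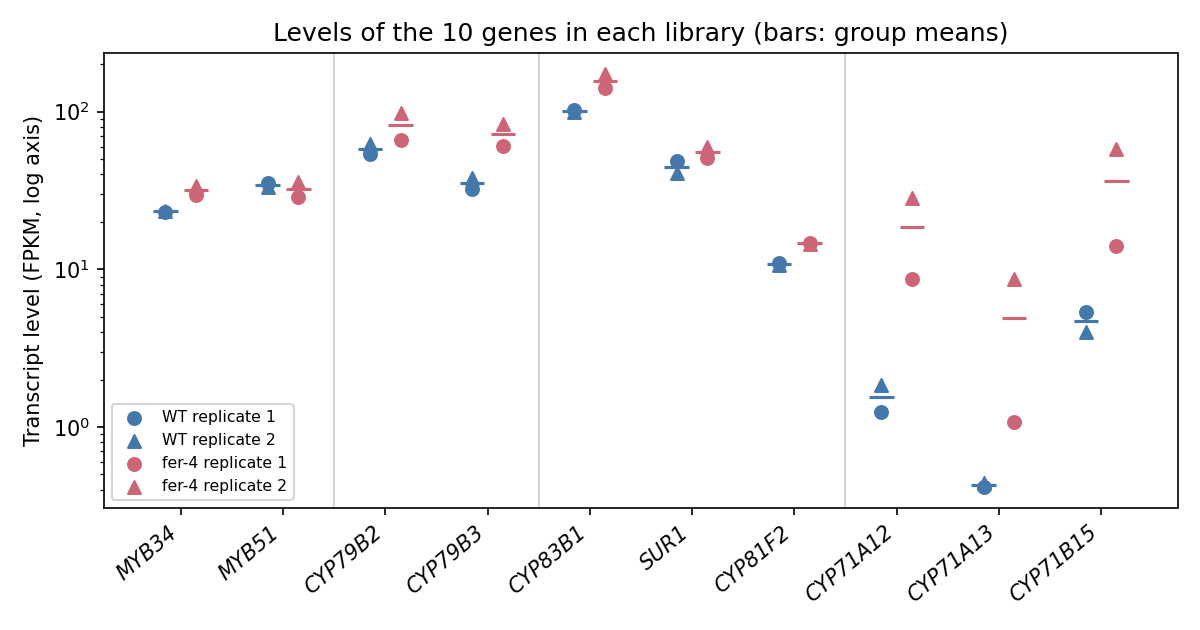
Level of each gene in each library, in FPKM on a log axis, with circles for replicate 1, triangles for replicate 2 and horizontal bars for the group means. The fer-4 libraries lie above the WT libraries for 9 of the 10 genes, and the camalexin genes at the right show both the widest gap between genotypes and the widest gap between the fer-4 libraries.

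**Figure D2:**
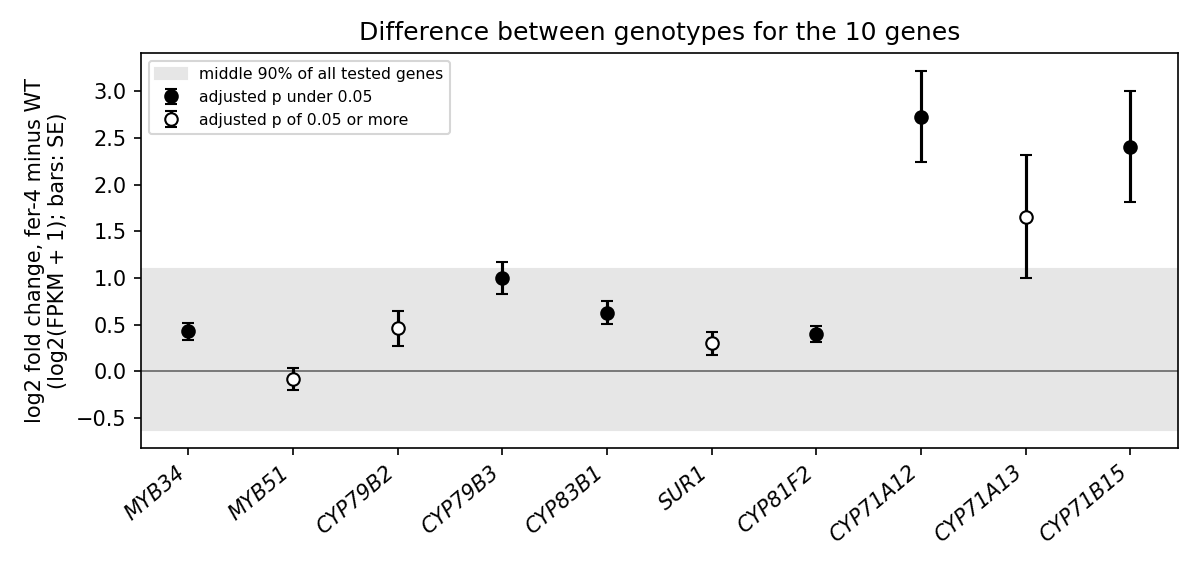
Difference between genotypes on the log2(FPKM + 1) scale, fer-4 minus WT, with bars for limma's moderated standard error and the middle 90% of all 19183 tested genes shaded (-0.63 to 1.10). CYP71A12, CYP71A13 and CYP71B15 lie above the shaded range, although CYP71A13 did not pass the test.

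The transcription factor genes differed from each other. MYB34 (AT5G60890, TAIR10.1 chromosome 5, 24494291 to 24496371, plus strand, protein-coding) had WT levels of 23.1 and 23.5 FPKM and fer-4 levels of 29.8 and 33.6 FPKM. Both fer-4 libraries were above both WT libraries, and the gene rose from 23.3 ± 0.324 to 31.7 ± 2.68 FPKM (SD, n = 2), a log2 fold change of 0.43 ± 0.09 (SE; limma, adjusted p = 0.0243). The call also ended without fer-4 replicate 2 (adjusted p = 0.0903). MYB51 (AT1G18570, chromosome 1, 6389399 to 6391386, plus strand, protein-coding) was at 35.3 and 33.1 FPKM in the WT libraries and at 29.0 and 35.8 FPKM in those of fer-4. Its WT libraries lay between its fer-4 libraries, with a log2 fold change of -0.08 ± 0.12 (limma, adjusted p = 0.66). Within a library MYB34 was at 0.654 and 0.712 of the MYB51 level in WT, and at 1.03 and 0.938 of it in fer-4. These 4 ratios did not overlap between genotypes, which was not tested. Levels of 66.1% of tested genes did not overlap either, in 1 direction or the other, and no such share was computed for ratios.

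The enzymes of the shared first step both lay higher in fer-4, and CYP79B3 passed the test. CYP79B3 (AT2G22330, chromosome 2, 9488413 to 9491404, plus strand, protein-coding) stood at 32.4 and 38.2 in the WT pair and at 60.8 and 83.5 FPKM in the fer-4 pair. It rose 2.05-fold (log2 fold change 1.0 ± 0.17; limma, adjusted p = 0.00963), and 5.59% of tested genes had a larger log2 fold change. CYP79B2 (AT4G39950, chromosome 4, 18525042 to 18527602, plus strand, protein-coding) had WT levels of 53.9 and 62.6 FPKM and fer-4 levels of 66.0 and 97.6 FPKM. The lower fer-4 library was only slightly above the higher WT library, and the log2 fold change of 0.46 ± 0.19 did not pass (limma, adjusted p = 0.136). Without fer-4 replicate 1 it was 0.74 and passed (adjusted p = 0.00846), and without fer-4 replicate 2 it was 0.18 and did not (adjusted p = 0.419). CYP79B3 stood at 0.601 and 0.610 of the CYP79B2 level in WT and at 0.921 and 0.855 of it in fer-4. The ratio thus did not overlap between genotypes, which was not tested. How often such ratios overlap in general was not computed. Together the pair summed to 86.2 and 101 FPKM in WT, against 127 and 181 FPKM in fer-4.

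The coding sequences of CYP79B2 and CYP79B3 were identical at 80.8% of 1694 aligned bases, with no shared run longer than 32 bases. The 250 bases before each gene are shown because the pair shares a stretch there, printed in capitals; they were read 5′ to 3′ on the strand of the gene from the TAIR10.1 genome of RefSeq, at chr4:18524792-18525041 and chr2:9488163-9488412.
CYP79B2: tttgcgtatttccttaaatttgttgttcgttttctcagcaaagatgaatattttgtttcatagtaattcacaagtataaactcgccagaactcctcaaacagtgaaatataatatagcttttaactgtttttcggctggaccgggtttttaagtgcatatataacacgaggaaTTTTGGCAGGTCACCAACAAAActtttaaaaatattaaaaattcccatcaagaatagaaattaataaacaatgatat
CYP79B3: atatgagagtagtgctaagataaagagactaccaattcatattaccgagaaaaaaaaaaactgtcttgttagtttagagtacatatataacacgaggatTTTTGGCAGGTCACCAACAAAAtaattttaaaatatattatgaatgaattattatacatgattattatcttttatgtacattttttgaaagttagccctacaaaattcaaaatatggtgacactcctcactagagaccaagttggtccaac
The shared stretch is 22 bases long and is the longest exact match common to both windows. It lies 77 to 56 bases before the start of CYP79B2 and 151 to 130 bases before that of CYP79B3. On either strand, 2 of 24038 windows of the same length before listed genes held it, which are those of this pair. The stretch was picked from these 2 windows, so the count is no test of it, and other gene pairs were not searched. Such a match is a description of the sequence and names no factor. Just upstream of the capitals, past a mismatch, the windows match again in bases left in lower case.

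Of the later enzymes of the glucosinolate route, CYP83B1 and CYP81F2 rose, with log2 fold changes of 0.63 and 0.40. CYP83B1 (AT4G31500, chromosome 4, 15273410 to 15275404, minus strand, protein-coding), which oxidises indole-3-acetaldoxime, had the highest level of the 10 genes in every library, at 103 and 99.4 FPKM in WT, against 141 and 174 FPKM in fer-4. It rose from 101 ± 2.27 to 157 ± 23.7 FPKM (SD, n = 2), a log2 fold change of 0.63 ± 0.12 (limma, adjusted p = 0.0166). SUR1 (AT2G20610, chromosome 2, 8877887 to 8880440, minus strand, protein-coding), the carbon-sulfur lyase that also serves the aliphatic glucosinolates, was at 48.4 and 41.1 FPKM in the WT libraries and at 50.5 and 59.9 FPKM in those of fer-4. The gap between the nearest libraries of the genotypes was smaller than that between the WT libraries, and the log2 fold change of 0.30 ± 0.12 did not pass (limma, adjusted p = 0.141). CYP81F2 (AT5G57220, chromosome 5, 23187840 to 23189902, plus strand, protein-coding) stood at 10.9 and 10.7 in the WT pair and at 14.7 and 14.5 FPKM in the fer-4 pair. Its libraries nearly coincided within each genotype, and it rose from 10.8 ± 0.176 to 14.6 ± 0.0939 FPKM (log2 fold change 0.40 ± 0.09; limma, adjusted p = 0.0248). That call ended without any 1 of the 4 libraries (adjusted p = 0.069 to 0.137), while the log2 fold change stayed between 0.39 and 0.42.

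The camalexin genes had the largest log2 fold changes of the 10 genes and the largest spread, except that CYP71A13 was below CYP79B3 with a pseudocount of 5 (0.75 against 0.93) and without fer-4 replicate 2 (0.54 against 0.77). With a pseudocount of 5 the log2 fold change of CYP71A12 was 1.70. CYP71A12 (AT2G30750, chromosome 2, 13099486 to 13101371, minus strand, protein-coding), which like CYP71A13 turns indole-3-acetaldoxime into indole-3-acetonitrile, had WT levels of 1.25 and 1.85 FPKM and fer-4 levels of 8.64 and 28.3 FPKM. Both fer-4 libraries were well above WT and differed from each other more than 3-fold. Its log2 fold change was 2.73 ± 0.49 (limma, adjusted p = 0.0121), and 0.886% of tested genes had a larger one. CYP71B15 (AT3G26830, chromosome 3, 9887917 to 9889791, plus strand, protein-coding), the enzyme of the last step to camalexin, was at 5.35 and 3.99 FPKM in the WT libraries and at 14.0 and 58.3 FPKM in those of fer-4. It rose 7.74-fold in the mean, from 4.67 ± 0.967 to 36.1 ± 31.3 FPKM (SD, n = 2), with a log2 fold change of 2.41 ± 0.59 (limma, adjusted p = 0.0333). That call ended when no filter on low values was applied (adjusted p = 0.0847) and without the mean-variance trend (adjusted p = 0.0501). Its log2 fold change was 1.41 without fer-4 replicate 2 and 3.40 without fer-4 replicate 1, and that of CYP71A12 was 1.93 and 3.53.

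CYP71A13 (AT2G30770, chromosome 2, 13109909 to 13111988, minus strand, protein-coding) stood at 0.416 and 0.440 in the WT pair and at 1.08 and 8.73 FPKM in the fer-4 pair. By the estimated depth, the WT values stood for about 13 fragments in each library, and the fer-4 values for about 35 and 261. These counts are rough, since the window used for the depth estimate bounds its outcome. The log2 fold change of 1.66 ± 0.66 did not pass (limma, adjusted p = 0.126), and it was 0.54 without fer-4 replicate 2 (adjusted p = 0.146) and 2.77 without fer-4 replicate 1 (adjusted p = 0.000169). The last 572 bases of CYP71A13 overlap AT2G30766, a gene on the plus strand that had WT levels of 26.9 and 18.5 FPKM and fer-4 levels of 44.5 and 75.4 FPKM. Whether strand was kept is not stated by the labels, so the values of CYP71A13 are uncertain, and the part of AT2G30766 in them was not tested. CYP71A12 and CYP71B15 overlap no annotated gene.

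CYP71A12 and CYP71A13 are neighbours on chromosome 2 and similar copies, with 90.4% of 1494 coding bases identical. The longest run they share is 59 bases, and 0.7% of the 50-base words of the CYP71A12 coding sequence, and 0.0% of its 100-base words, occur in CYP71A13. This run is shown with 30 bases on each side, coding bases 561 to 680 of both genes, with the 9 bases that differ in capitals. A fragment that lies within such a run cannot be assigned to either copy.
CYP71A12: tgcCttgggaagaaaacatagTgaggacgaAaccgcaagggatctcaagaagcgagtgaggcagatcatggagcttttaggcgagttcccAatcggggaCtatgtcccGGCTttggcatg
CYP71A13: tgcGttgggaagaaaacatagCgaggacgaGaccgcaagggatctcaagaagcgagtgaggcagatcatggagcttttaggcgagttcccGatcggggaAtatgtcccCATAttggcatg
The level of CYP71A12 was 3.0 and 4.21 times that of CYP71A13 in WT and 7.98 and 3.24 times in fer-4, so CYP71A12 was the more abundant copy in all 4 libraries and the ratio overlapped between genotypes.

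The 250 bases before the camalexin genes are shown because these genes lay higher together in fer-4 and because WRKY factors are known to act on camalexin genes through W-boxes. Each window ends just before the more upstream of the TAIR10.1 start and the start in the deposited files, on the strand of the gene, at chr2:13101414-13101663, chr2:13112012-13112261 and chr3:9887667-9887916. Capitals mark the W-box core TTGAC on either strand.
CYP71A12: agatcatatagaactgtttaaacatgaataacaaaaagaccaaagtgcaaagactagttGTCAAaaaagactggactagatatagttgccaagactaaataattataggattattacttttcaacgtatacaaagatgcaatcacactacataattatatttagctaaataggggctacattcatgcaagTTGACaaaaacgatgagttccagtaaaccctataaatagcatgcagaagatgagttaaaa
CYP71A13: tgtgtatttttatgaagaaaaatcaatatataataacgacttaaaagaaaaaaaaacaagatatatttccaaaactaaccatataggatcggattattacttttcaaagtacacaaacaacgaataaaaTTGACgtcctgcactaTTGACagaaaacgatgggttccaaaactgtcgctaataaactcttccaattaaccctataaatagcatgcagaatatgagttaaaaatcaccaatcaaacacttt
CYP71B15: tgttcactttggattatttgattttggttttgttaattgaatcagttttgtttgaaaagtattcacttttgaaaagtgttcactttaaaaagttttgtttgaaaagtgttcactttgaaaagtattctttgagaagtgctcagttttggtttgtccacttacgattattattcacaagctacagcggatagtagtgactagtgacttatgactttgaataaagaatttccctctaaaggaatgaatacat
The windows of CYP71A12 and CYP71A13 held 2 cores each and that of CYP71B15 held 0. The bases beside a core were not considered, so a marked core need not be a full W-box. Among the 10 genes, 5 had at least 1 core, against 45.1% of the 24038 windows, and the other 3 were MYB51, SUR1 and CYP81F2 with 2 cores each. Windows with 2 or more cores made up 14.3% of all. The G-box CACGTG, which MYC factors bind, was found in 1 of the 10 windows, that of SUR1, against 7.0% of all windows. It overlapped no W-box core. A window without a match says only that these letters are not in it.

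**Figure D3:**
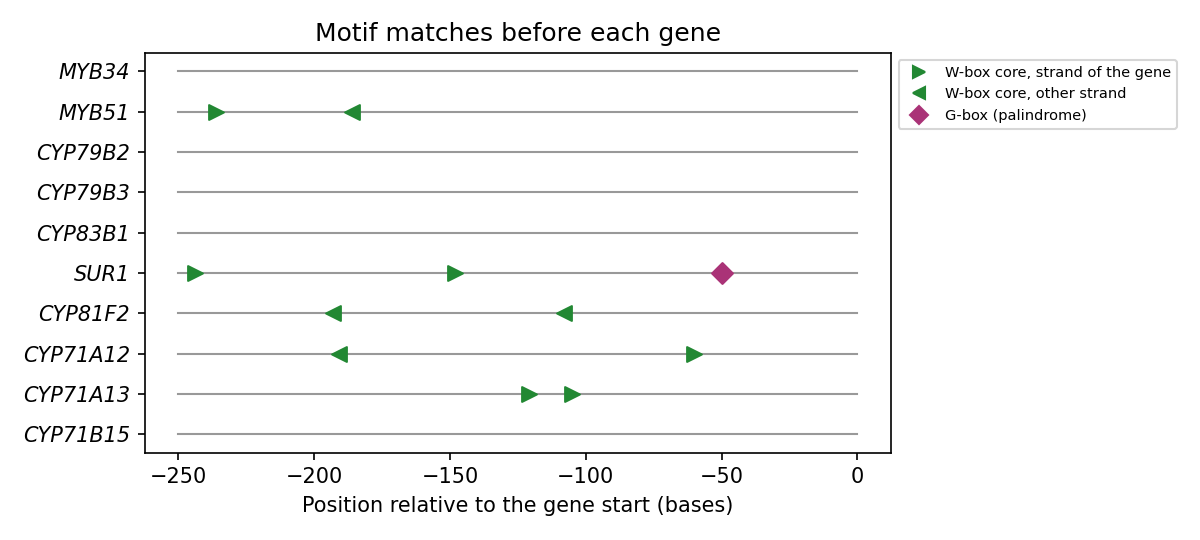
Matches to the W-box core TTGAC and the G-box CACGTG in the 250 bases before each gene, by distance from the gene start in bases; arrowheads point along the strand of the match. In 5 of the 10 windows there are 2 W-box cores each, and the windows of MYB34, CYP79B2, CYP79B3, CYP83B1 and CYP71B15 hold neither motif.

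In WT the order of mean FPKM was CYP83B1, CYP79B2, SUR1, CYP79B3, MYB51, MYB34, CYP81F2, CYP71B15, CYP71A12 and CYP71A13, from 101 down to 0.428, and among neighbours in it CYP79B3 and MYB51 overlapped. SUR1 was above CYP79B3 in WT, at 41.1 to 48.4 against 32.4 to 38.2 FPKM, and below it in fer-4, at 50.5 to 59.9 against 60.8 to 83.5 FPKM, without overlap in either genotype. In fer-4 CYP71B15 stood next after SUR1 at 36.1 FPKM. Its libraries spanned 14.0 to 58.3 FPKM, however, and overlapped those of SUR1, MYB51, MYB34, CYP71A12 and CYP81F2. CYP71A12 had a fer-4 mean of 18.5 FPKM, above the 14.6 FPKM of CYP81F2, although its lower fer-4 library was below both CYP81F2 values. The 3 camalexin genes summed to 7.02 and 6.28 FPKM in WT, against 23.7 and 95.3 FPKM in fer-4.

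In fer-4 replicate 2, 9 of the 10 genes were higher than in replicate 1, against 52.8% of all tested genes, while in WT 5 of the 10 were higher in replicate 2, against 42.2%. CYP71A13, CYP71B15 and CYP71A12 were higher by 2.22, 1.98 and 1.60 on the log2(FPKM + 1) scale, and 0.141%, 0.172% and 0.292% of tested genes had a larger gap in either direction. CYP79B2 and CYP79B3 were higher by 0.56 and 0.45, outside the middle 90% of tested genes (-0.37 to 0.42), and CYP81F2 differed by -0.01. The summed shoot marker level was lower in fer-4 replicate 2 than in replicate 1, as given above, and its part in this gap was not tested. The camalexin genes had standard errors of 0.49 to 0.66, against 0.09 to 0.19 in the other 7 genes.

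**Figure D4:**
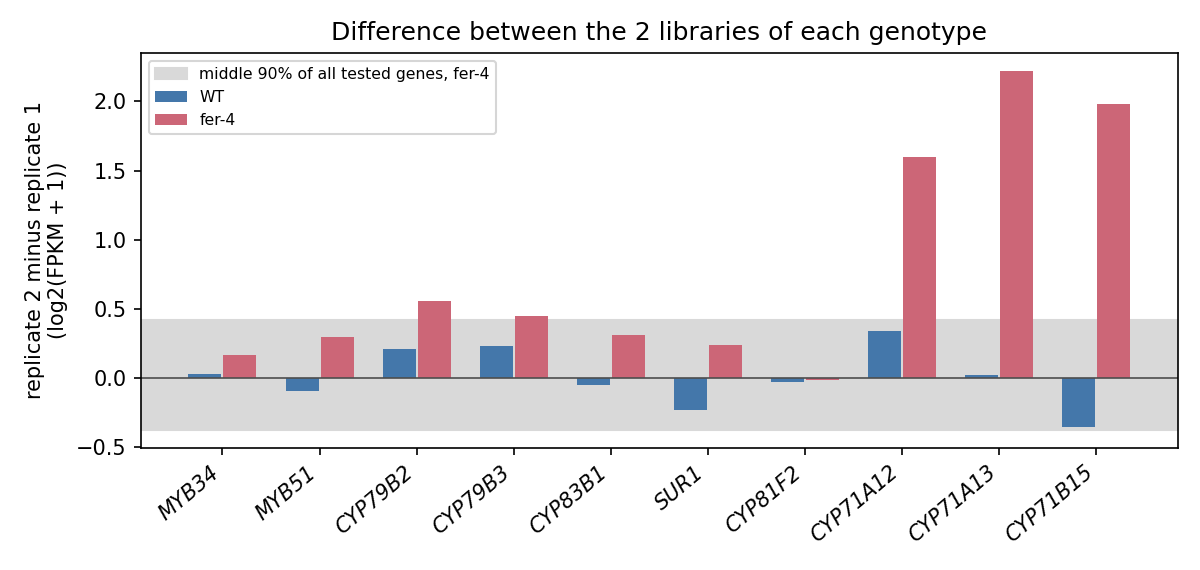
Difference between the libraries of each genotype, replicate 2 minus replicate 1, in log2(FPKM + 1), for the 10 genes; the shaded band holds the middle 90% of all tested genes in fer-4. The camalexin genes reach 1.60 to 2.22 in fer-4, while no WT bar of the 10 genes exceeds 0.35 in size.

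The supply of tryptophan was described by a list of 11 genes, of which 6 rose and 1 fell, against 14.3% and 9.00% of all tested genes, with a median log2 fold change of 0.62 against 0.005 over all tested genes. Across this and the other pathway lists, 25 of 55 tested genes rose and 3 fell, to be read against the same shares. Without WT replicate 1 these counts were 9 and 0, against 1373 and 532 of all 19183 genes, and without WT replicate 2 they were 7 and 0, against 1227 and 461. With no filter on low values 15 rose and 2 fell. PAT1, which encodes anthranilate phosphoribosyltransferase, was at 22.9 and 20.9 FPKM in the WT libraries and at 60.3 and 89.6 FPKM in those of fer-4 (log2 fold change 1.70 ± 0.18; limma, adjusted p = 0.00213). The deposited files give PAT1 the same locus as AT5G18000, so its value is uncertain. The same holds for ASB1 with AT1G25211 and for IGPS with AT2G04410. Both also rose, so the count of 6 is uncertain too, and both were named after their values were seen. The phosphoribosylanthranilate isomerase genes, which follow PAT1 in the pathway, went different ways. PAI3 stood at 0.173 and 0.223 in the WT pair and at 4.81 and 4.71 FPKM in the fer-4 pair (log2 fold change 2.27 ± 0.15; limma, adjusted p = 0.000492), and entered the test only through fer-4. Its log2 fold change was 4.03 with a pseudocount of 0.1 and 0.91 with 5. PAI1 fell from 22.8 ± 0.639 to 17.2 ± 0.734 FPKM (SD, n = 2; limma, adjusted p = 0.0251), while PAI2 rose from 10.2 ± 0.624 to 16.4 ± 3.76 FPKM (limma, adjusted p = 0.0382) and shares its locus in the files with AT5G05580. PAI2 was named after its values were seen. PAI1 and PAI2 are identical at 99.4% of their coding bases, with a shared run of 438 bases, so the division of fragments between them is uncertain; PAI3 is 89.5% identical to PAI1, with a longest shared run of 80 bases. The calls of PAT1 and PAI3 held under every alternative that gave them a value, and that of PAI1 ended without WT replicate 1, WT replicate 2 or fer-4 replicate 1 (adjusted p = 0.0766 to 0.136) and with the replicate number as a block (adjusted p = 0.0565).

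After the aldoxime, the list of conjugating and sulfur-handling genes had 4 of 8 members higher and 0 lower (median 0.54). Of all tested genes, 14.3% were called higher and 9.00% lower. GSTU13, a glutathione transferase of the indole branch, had WT levels of 38.7 and 41.4 FPKM and fer-4 levels of 81.0 and 93.5 FPKM, and its log2 fold change of 1.10 ± 0.10 passed under every alternative (limma, adjusted p = 0.0013). GSTF10 rose from 507 ± 86.4 to 887 ± 155 FPKM (SD, n = 2; limma, adjusted p = 0.0279), a call that ended without WT replicate 1, WT replicate 2 or fer-4 replicate 2 (adjusted p = 0.0623 to 0.153), with the replicate block (adjusted p = 0.0694) and with no filter on low values. It overlaps AT2G30880. In the list of ring modification, 4 of 8 genes rose and 1 fell (median 0.53), to be read against the same shares. IGMT4, a methyltransferase that acts on the hydroxylated ring made by CYP81F enzymes, was at 80.7 and 101 FPKM in the WT libraries and at 255 and 211 FPKM in those of fer-4 (limma, adjusted p = 0.00223). Its tandem copies differed. IGMT1 rose (9.05 and 20.8 FPKM against 35.2 and 34.4 FPKM; limma, adjusted p = 0.0414). So did IGMT2 (3.31 and 4.63 FPKM against 11.8 and 8.42 FPKM; limma, adjusted p = 0.0105), which was named after its values were seen. IGMT3 fell from 66.1 ± 1.11 to 44.1 ± 6.97 FPKM (SD, n = 2; limma, adjusted p = 0.0203). These copies are 92.5% to 93.4% identical in the pairs compared, with shared runs of up to 149 bases, so single members are uncertain. The call of IGMT1 ended without fer-4 replicate 1 or 2 (adjusted p = 0.0555 and 0.0618), with no filter, without the trend and under quantile normalization, and its log2 fold change of 1.27 was 0.71 without WT replicate 1. The call of IGMT3 ended without WT replicate 1 or 2 (adjusted p = 0.103 and 0.125).

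Of 12 regulators, 11 were tested, 3 rose and 1 fell (median 0.26), against 14.3% and 9.00% of all tested genes. MYC2, a jasmonate-responsive factor that acts with the MYB proteins on glucosinolate genes, stood at 44.8 and 44.4 in the WT pair and at 70.9 and 89.6 FPKM in the fer-4 pair (log2 fold change 0.82 ± 0.12; limma, adjusted p = 0.00696). It overlaps AT1G32630, so its value is uncertain. WRKY40 had WT levels of 40.6 and 40.9 FPKM and fer-4 levels of 56.5 and 81.5 FPKM (limma, adjusted p = 0.0296), and shares its locus in the files with AT1G80850. The kinase gene MPK3, which acts upstream of WRKY33 in camalexin induction, fell from 239 ± 14.3 to 173 ± 17.1 FPKM (SD, n = 2; limma, adjusted p = 0.0333), and it overlaps AT3G45645. WRKY33 itself, the activator of the camalexin genes, was at 91.5 and 96.1 FPKM in the WT libraries and at 103 and 123 FPKM in those of fer-4 and did not pass (limma, adjusted p = 0.154); it shares its locus in the files with AT2G38480 and was named after its values were seen. The calls of MYC2, WRKY40 and MPK3 ended without WT replicate 1 or WT replicate 2 (adjusted p = 0.0579 to 0.17), and that of MPK3 also without fer-4 replicate 1 (adjusted p = 0.131) and with the replicate block (adjusted p = 0.0784). With no filter on low values, those of WRKY40 and MPK3 ended.

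The genes that work beside the camalexin enzymes had 5 of 8 tested members higher and 0 lower (median 0.90). Among all tested genes these shares were 14.3% and 9.00%. CYP82C2, not listed in WT and at 0.0907 and 4.26 FPKM in fer-4, entered the test only through fer-4 and did not pass. GSTU4 stood at 10.8 and 6.11 in the WT pair and at 36.0 and 95.1 FPKM in the fer-4 pair (log2 fold change 2.70 ± 0.46; limma, adjusted p = 0.0102). GSTF6, a glutathione transferase that conjugates indole-3-acetonitrile on the way to camalexin, had WT levels of 67.7 and 45.04 FPKM and fer-4 levels of 149 and 333 FPKM (log2 fold change 1.99 ± 0.38; limma, adjusted p = 0.0155). Both followed the camalexin enzymes in being higher in fer-4 replicate 2 than in replicate 1, by 1.38 and 1.16 on the log2 scale. The call of GSTU4 ended without WT replicate 2 (adjusted p = 0.0876), and that of GSTF6 without WT replicate 1 or 2 (adjusted p = 0.0601 and 0.117). Of 6 breakdown and transport genes 3 rose and 0 fell (median 0.42), against the same 14.3% and 9.00%. They were led by the glucosinolate transporter gene GTR1 (35.0 and 40.8 FPKM against 65.5 and 61.9 FPKM; limma, adjusted p = 0.00524) and PEN3, which encodes a transporter of indole defence compounds (236 and 247 FPKM against 410.2 and 359 FPKM; limma, adjusted p = 0.0105). GTR1 shares its locus in the files with AT3G47950, and the call of PEN3 ended without WT replicate 1 or 2 (adjusted p = 0.0756 and 0.0665). In this list 1 of 6 genes was higher in fer-4 replicate 2 than in replicate 1, against 52.8% of all tested genes.

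**Figure D5:**
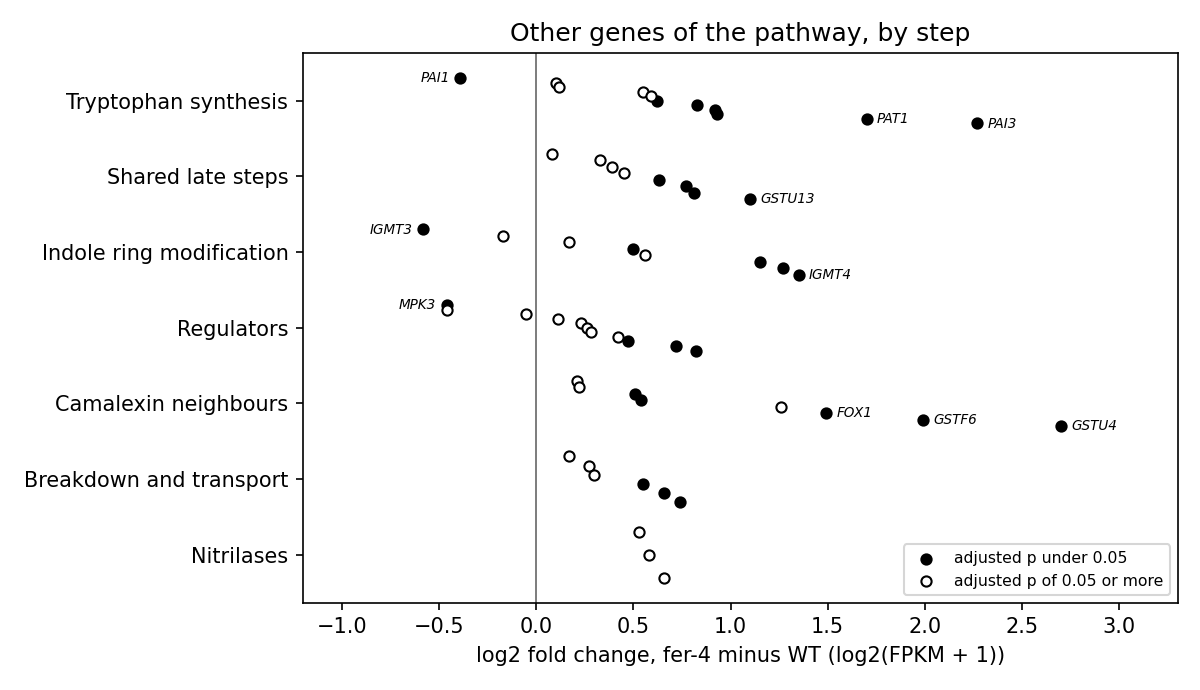
log2 fold change, fer-4 minus WT, on the log2(FPKM + 1) scale, for 55 tested genes of the pathway outside the 10, in rows by step; filled points passed the test at an adjusted p under 0.05. Filled points lie to the right of 0 except PAI1, IGMT3 and MPK3, and the largest values at this pseudocount of 1 are those of GSTU4, PAI3 and GSTF6.

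The tested genes whose profile over the 4 libraries lay nearest to that of CYP71B15, by Euclidean distance of gene-centred log2(FPKM + 1), were ABCG40, CYP71A20, AT3G28220, PDF1.4 and DIR5, at distances of 0.215 to 0.496. CYP71A20, for example, was at 0.299 and 0.222 FPKM in the WT libraries and at 2.65 and 12.0 FPKM in those of fer-4. ABCG40, CYP71A20, PDF1.4 and DIR5 were below 1 FPKM in both WT libraries and entered the test only through fer-4. All of these neighbours but ABCG40 (limma, adjusted p = 0.0525) passed the test (limma, adjusted p = 0.0128 to 0.0251). They were picked for their likeness to CYP71B15, so these calls lend it no support. The nearest to CYP79B2 were MES10, AT2G18690, AT4G22980, HAM4 and AT1G64610, at distances of 0.0216 to 0.0805, and 0 of these 5 passed the test (limma, adjusted p = 0.0934 to 0.131). With 4 libraries such a likeness rests on few points, and many genes can have near profiles.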

How the data were processed

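Gene-level FPKM values were deposited by the authors, as the unit is called per the file headers. Tools listed in the submitters' processing notes are StringTie 1.3.3, HISAT2 2.0.5 and CASAVA, and the build is TAIR10; neither roles nor settings are given there, nor an annotation release, library strandedness or the handling of multi-mapped reads. Genes at 0 are missing from a file and were set to 0.

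Identifiers were matched to RefSeq TAIR10.1 (24039 of 24252 matched, all on the same chromosome). Positions and sequences come from it. Promoter windows were 250 bases, and coding sequences were aligned globally with Biopython 1.88. Depth was estimated from genes with a single transcript, as the median of level times length within a window set beforehand. The window lay around the value of a lone fragment and bounds the outcome. Intervals for counting error were not computed since the files hold no counts.

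Values were compared as log2(FPKM + 1) with limma-trend (limma 3.58.1, R 4.3.3), fer-4 against WT, without covariates, over the 19183 genes whose mean reached 1 FPKM, with Benjamini-Hochberg adjustment over all of them and a threshold of 0.05. Such fold changes understate the change of low genes. Tests are two-sided; an exact permutation of 2 against 2 libraries cannot reach the threshold. The fit was tested on simulated data. Where 1 library was left out, the lone library of its group was assumed to vary like the other group. Alternatives were other pseudocounts, filters and scalings, no trend, a replicate block and each library left out.

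The genes and pathway lists were chosen with earlier results of these data known. Named were the 10 genes, FER, the 2 largest rises and 2 largest falls past the threshold in each list, and the 5 genes nearest in profile to CYP71B15 and to CYP79B2. Genes named outside this rule were chosen after their values were seen.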

Additional observations from a re-analysis of the deposited data

How the results depend on the processing

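The members that passed numbered 5 to 6 under the other pseudocounts, filters and scalings, without the trend and with the replicate block (6), and 0 to 7 when 1 library was left out. All tested genes past the threshold numbered 4469, and 1688 to 4417 with 1 library left out; the pathway list genes numbered 28, and 7 to 32 with 1 library left out. The list count fell to 17 with no filter on low values, where 24252 genes were tested. The log2 fold change of MYB51 turned from -0.08 to 0.07 without fer-4 replicate 1 (-0.23 to 0.07 with 1 library left out, adjusted p of 0.24 or more); none of the other 9 members, FER or the 15 list genes named by rule changed sign, and other named genes were not run under the alternatives. CYP71A13 had no value at a minimum mean of 5 FPKM. With the replicate block CYP71A13 passed (adjusted p = 0.0454) and CYP81F2 did not (adjusted p = 0.053), nor did PAI1, GSTF10 and MPK3; 3772 genes and 24 list genes passed. Same-numbered libraries share only a number, with deviations that correlated at -0.222 across genes. A crossed pairing, added after the data were seen, gave 5681 genes, 7 members and 39 list genes. Quantile normalization moved the median of all genes from 0.005 to -0.071 and the share of higher among the calls from 61.4% to 49.2%, while 6 members rose and 0 fell as before. The cause of the lower counts without a WT library was not tested. By the depth estimate, whose outcome its window bounds, CYP71A13 in WT rested on about 13 fragments a library.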

Other observations

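The nitrilase genes NIT1, NIT2 and NIT3, whose enzymes turn indole-3-acetonitrile and other nitriles into acids, were all higher in both fer-4 libraries than in either WT library, as were 34.4% of all tested genes. NIT2 had WT levels of 75.6 and 68.1 FPKM and fer-4 levels of 84.8 and 153 FPKM. NIT1 had WT levels of 328 and 250.02 FPKM and fer-4 levels of 331 and 520.1 FPKM. Of these 3 genes 0 passed the test (limma; 2 had an unadjusted p under 0.05). All were higher in fer-4 replicate 2 than in replicate 1, as were 52.8% of all tested genes. NIT1 and NIT2 are identical at 91.4% of their aligned coding bases, with a shared run of 104 bases, so single members are uncertain.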
